A study of Mus musculus with 16 samples.

Results

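T cell and cytotoxic lymphocyte genes, 10 in number, were followed in the livers of 16 mice: Cd3e and Cd3g of the T cell receptor complex, the surface receptors Cd4, Cd8a and Cd5, the granule genes Gzma, Gzmb, Gzmk and Nkg7, and the chemokine receptor Cxcr6. They were chosen by name, their symbols were matched to the gene identifiers of the count files through the GRCm38 annotation, and all 10 were found among 55471 identifiers. RNA sequencing of total liver RNA had been done for 4 groups of 4 mice each. PAM I and PAM II mice were 102 weeks old and antibiotic-exposed, aged controls were 102 weeks old with no antibiotics, and young adults were 12 weeks old, also without any. By the title of the series the antibiotic exposure was early in life. The drugs, doses, sex, strain and the meaning of PAM are not given in the sources used here. One free-text label of the young samples speaks of aged mice, against their title, age and group fields, which were followed here. Nothing in the labels ties mice of different groups together, and p-values measure the spread between these livers.

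A T cell recognises a peptide on an MHC molecule through its antigen receptor, whose signal is carried into the cell by the CD3 chains. CD4 and CD8 are the co-receptors that bind MHC class II and class I, and they divide helper from cytotoxic T cells. Cytotoxic T cells and natural killer (NK) cells kill by releasing granules with perforin and granzymes, serine proteases that enter the target cell, and the liver is rich in both kinds of cell, with CXCR6 marking many that patrol or reside in its sinusoids. In bulk liver RNA, fewer cells of a type and less RNA per cell cannot be told apart.

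Cd5, Cd8a and Gzmk had every aged liver above every young liver, and the sequence before their transcription start is shown for that reason. The windows run from 250 to 61 bases before the RefSeq start on GRCm38.p6, 5′ to 3′ on the gene's strand, at chr19:10739035-10739224 (minus strand) for Cd5, chr6:71373177-71373366 (plus strand) for Cd8a and chr13:113181026-113181215 (minus strand) for Gzmk. The RefSeq start of Gzmk lies inside the longer GENCODE span of that gene. Capitals mark matches on either strand to 4 short motifs, AGGAAG (an ETS core), CAGGTG (an E-box), TGTGGT (a RUNX core) and TCACAC (a T-box core).
Cd5: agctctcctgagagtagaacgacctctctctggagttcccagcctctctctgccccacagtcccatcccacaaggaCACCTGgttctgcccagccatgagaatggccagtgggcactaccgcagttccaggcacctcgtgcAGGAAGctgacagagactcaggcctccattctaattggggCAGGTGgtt
Cd8a: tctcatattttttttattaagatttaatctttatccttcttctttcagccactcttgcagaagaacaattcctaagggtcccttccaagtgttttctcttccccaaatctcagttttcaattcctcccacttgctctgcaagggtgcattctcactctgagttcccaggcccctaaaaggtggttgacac
Gzmk: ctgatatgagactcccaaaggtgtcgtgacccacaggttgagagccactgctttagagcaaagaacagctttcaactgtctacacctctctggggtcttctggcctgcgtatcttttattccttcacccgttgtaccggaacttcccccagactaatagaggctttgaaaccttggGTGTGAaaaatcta
The Cd5 window held 1 AGGAAG and 2 CAGGTG matches, the Gzmk window 1 TCACAC match, read as its reverse complement, and the Cd8a window none of the 4. No match overlapped another. Sequences were found for 9 of the 10 genes, and AGGAAG was in 2 of them (22.7% of 32851 mouse promoter windows of this length), CAGGTG in 3 (13.8%), TGTGGT in 2 (11%) and TCACAC in 1 (9.37%). These are matches of letters and not sites of binding.

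Sequencing assigned 44532527 to 48706530 fragments per PAM I liver to genes, 41233838 to 52090914 per PAM II liver, 39856490 to 47042924 in aged controls and 36968993 to 42733282 in young adults. The 10 genes are rare in liver RNA: no gene had more than 644 fragments in a library, and the summed level of all 10 was 5.33 to 31.8 CPM (fragment counts over the library size, scaled by TMM) in PAM I livers, 4.13 to 9.76 in PAM II livers, 3.53 to 38.7 in aged controls and 4.37 to 6.61 in young adults. The hepatocyte gene Alb lay between 37400 and 92100 CPM in the 16 libraries. Aged control replicate 4 and PAM I replicates 3 and 4 stood apart in these genes: among the 12 aged livers, each of the 3 was in the top 4 for 10 of 10 genes, and results are also given without them where that ends a call or moves a count by over 1.5 times. Skeletal muscle transcripts differed between livers within every group (summed 1.96 to 41.8 CPM in PAM I livers, 1.7 to 105 in PAM II livers, 0.745 to 12.4 in aged controls and 1.10 to 110 in young adults), and a covariate for them was among the alternatives.

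**Figure D1:**
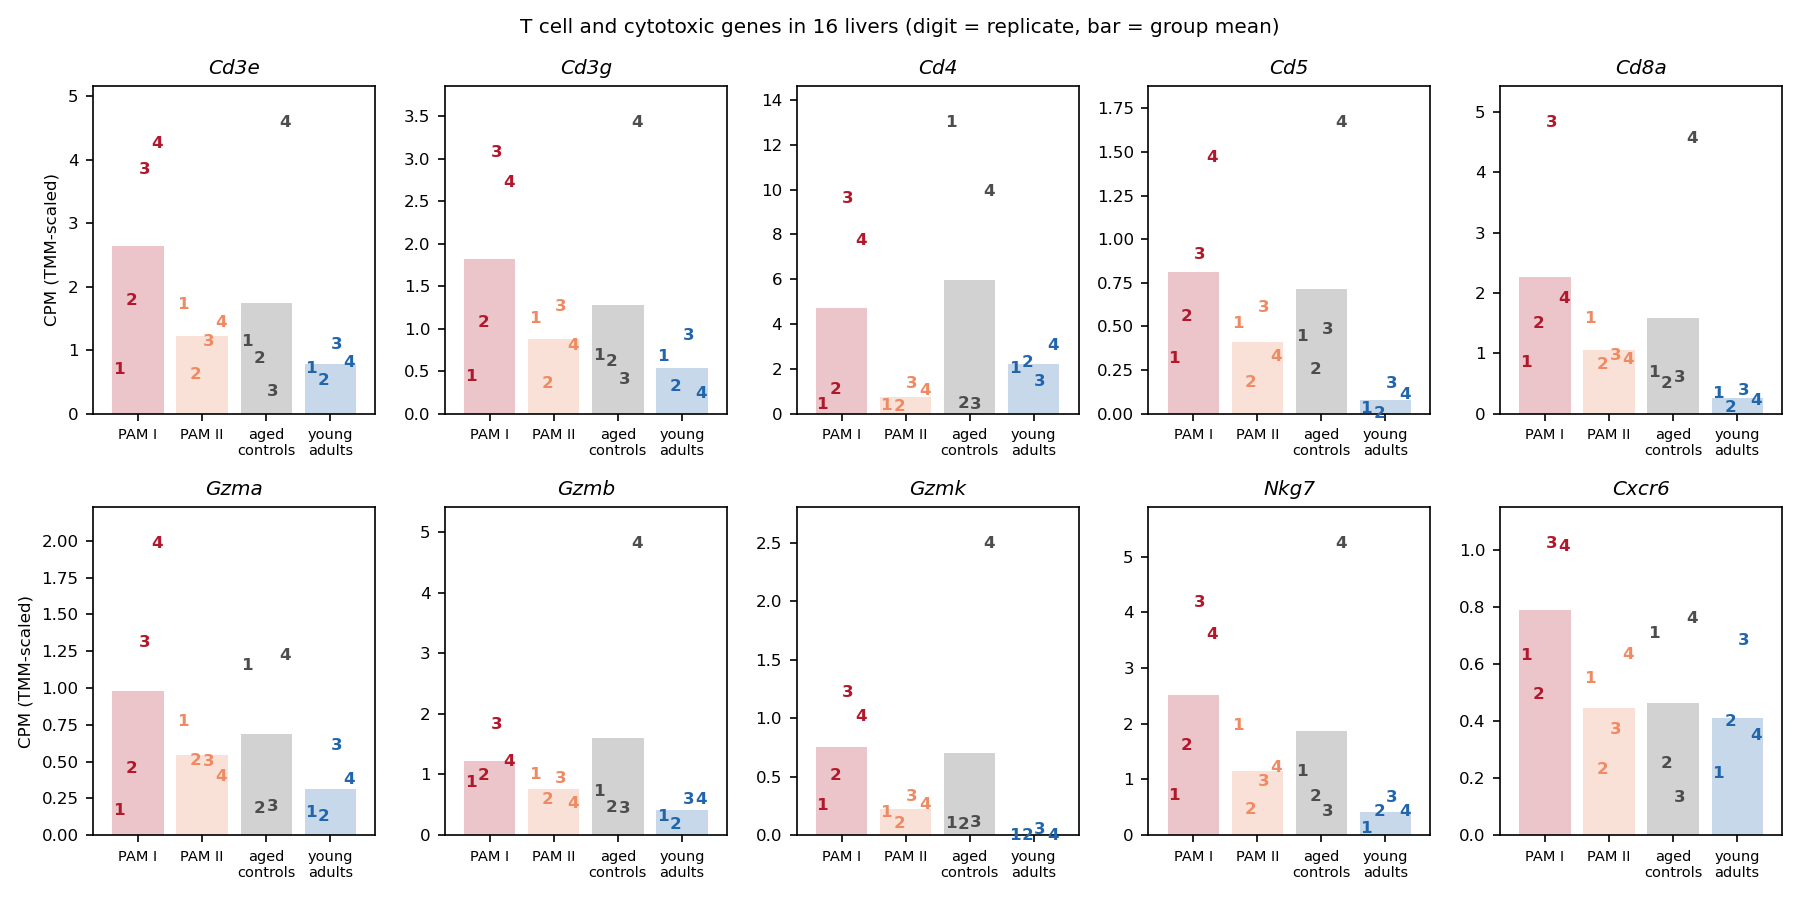
TMM-scaled CPM of the 10 genes (vertical axis, from 0, scale set per gene) in PAM I, PAM II, aged control and young adult livers; digits are replicates and bars are group means, n = 4 each. Replicates 3 and 4 of PAM I and replicate 4 of the aged controls are high throughout, and Cd5, Cd8a and Gzmk of young adults lie below every aged liver.

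Of the T cell receptor complex, Cd3e (ENSMUSG00000032093, chr9:44998740-45009627, minus strand) encodes the epsilon chain. Its level was 0.692, 1.78, 3.84 and 4.25 CPM in PAM I replicates 1 to 4, 1.72, 0.608, 1.13 and 1.43 CPM in PAM II, 1.13, 0.869, 0.351 and 4.59 CPM in aged controls, and 0.702, 0.524, 1.09 and 0.805 CPM in young adults. All 4 groups overlapped, and the aged controls spanned a range of 13.1 times, against 2.08 times in young adults. An antisense gene, Gm48719, overlaps the Cd3e exons and had 0 to 5 fragments in any library. Cd3g (ENSMUSG00000002033, chr9:44969572-44980431, minus strand), which encodes the gamma chain, lies 18.3 kb from Cd3e. It stood at 0.440, 1.07, 3.07 and 2.72 CPM in PAM I, 1.12, 0.354, 1.26 and 0.797 CPM in PAM II, 0.686, 0.617, 0.395 and 3.43 CPM in aged controls, and 0.671, 0.324, 0.923 and 0.241 CPM in young adults. The same 3 aged livers were high for both chains.

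Cd4 (ENSMUSG00000023274, chr6:124864692-124888221, minus strand), the co-receptor of helper T cells that some dendritic cells also carry, was distributed differently from the other 9. Its level was 0.419, 1.07, 9.58 and 7.72 CPM in PAM I, 0.361, 0.304, 1.33 and 1.03 CPM in PAM II, 13, 0.457, 0.416 and 9.91 CPM in aged controls, and 2.01, 2.30, 1.43 and 3.03 CPM in young adults. Among aged livers 4 had at least 7.72 CPM and 8 had at most 1.33 CPM, and the young livers lay between them. No PAM II liver was among the 4. Aged control replicate 1 had the highest Cd4 of all, 1150 fragments per 100 of Cd3e, while its Cd3e ranked 8 among the 12 aged livers. The mean log2 level of a Kupffer cell marker list, whose cells are the resident macrophages of the liver, was 5.38 in that liver, 4.62 in aged control replicate 4, and 6.17 and 5.30 in PAM I replicates 3 and 4, but it was also 6.10 in PAM II replicate 1, where Cd4 was 0.361 CPM. The mean log2 level of the dendritic cell markers was 1.20 and 1.88 in aged control replicates 1 and 4 and 1.20 and 1.38 in PAM I replicates 3 and 4. It was 0.86 and 0.72 in the other 2 aged controls, 0.87 and 0.95 in the other 2 PAM I livers, 0.57 to 1.05 in PAM II livers and 0.63 to 1.24 in young ones. The part of these cells in the Cd4 level was not tested.

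**Figure D2:**
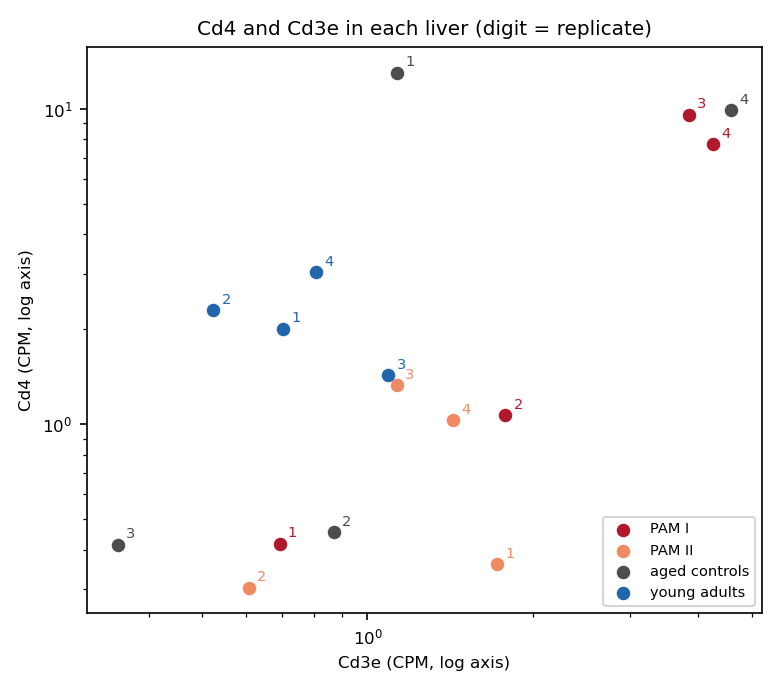
Cd4 against Cd3e, both in TMM-scaled CPM on log axes, with a point per liver labelled by its replicate number and coloured by group. Aged control replicates 1 and 4 and PAM I replicates 3 and 4 stand at 7.72 to 13 CPM of Cd4, and young adults at 1.43 to 3.03 CPM lie above the PAM II livers at 0.304 to 1.33 CPM.

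Cd8a (ENSMUSG00000053977, chr6:71373427-71379173, plus strand) encodes the alpha chain of the co-receptor of cytotoxic T cells. Its level was 0.839, 1.5, 4.83 and 1.90 CPM in PAM I, 1.58, 0.810, 0.957 and 0.891 CPM in PAM II, 0.686, 0.503, 0.592 and 4.57 CPM in aged controls, and 0.336, 0.0998, 0.389 and 0.215 CPM in young adults. The lowest aged liver was above the highest young one. Cd5 (ENSMUSG00000024669, chr19:10717116-10739002, minus strand), a receptor that dampens antigen receptor signals and is also found on B-1 cells, was at 0.315, 0.556, 0.912 and 1.47 CPM in PAM I, 0.516, 0.177, 0.609 and 0.328 CPM in PAM II, 0.444, 0.251, 0.482 and 1.67 CPM in aged controls, and 0.0305, 0, 0.170 and 0.107 CPM in young adults. These groups did not overlap either, but by a narrow margin: the lowest aged liver had 0.177 CPM and the highest young liver 0.170 CPM.

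Among the granule genes, Gzmk (ENSMUSG00000042385, chr13:113171608-113225908, minus strand) encodes granzyme K, a granzyme with trypsin-like activity. Its level was 0.252, 0.513, 1.22 and 1.01 CPM in PAM I, 0.189, 0.101, 0.326 and 0.258 CPM in PAM II, 0.101, 0.0914, 0.110 and 2.49 CPM in aged controls, and 0, 0, 0.0486 and 0 CPM in young adults. The 12 aged livers held 309 fragments and the 4 young livers 2, so that the ratio of rates was 41.8 with an exact 95% interval of 11.5 to 347, which covers counting error only. Of the aged controls' 126 fragments, 112 came from replicate 4. Gzma (ENSMUSG00000023132, chr13:113093825-113100981, minus strand), which encodes the tryptase granzyme A and lies 70.6 kb from Gzmk, was at 0.168, 0.449, 1.31 and 1.98 CPM in PAM I, 0.773, 0.506, 0.50 and 0.399 CPM in PAM II, 1.15, 0.183, 0.197 and 1.22 CPM in aged controls, and 0.153, 0.125, 0.607 and 0.376 CPM in young adults. All 4 groups overlapped for Gzma.

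Gzmb (ENSMUSG00000015437, chr14:56258838-56262260, minus strand) encodes granzyme B, which cleaves after aspartate and activates caspases. It stood at 0.860, 0.984, 1.82 and 1.21 CPM in PAM I, 0.997, 0.582, 0.935 and 0.516 CPM in PAM II, 0.726, 0.457, 0.438 and 4.81 CPM in aged controls, and 0.305, 0.175, 0.583 and 0.590 CPM in young adults. PAM I livers lay above the young ones without overlap, whereas PAM II livers and aged controls overlapped with them. Gzmb has close relatives in mice, Gzmc among them with at most 26 fragments in a library, and how reads shared between them were assigned is uncertain. Nkg7 (ENSMUSG00000004612, chr7:43437073-43438249, plus strand), a granule membrane protein needed for degranulation, was at 0.713, 1.6, 4.17 and 3.60 CPM in PAM I, 1.96, 0.456, 0.957 and 1.22 CPM in PAM II, 1.15, 0.686, 0.416 and 5.23 CPM in aged controls, and 0.122, 0.424, 0.680 and 0.429 CPM in young adults. Here too PAM I was separate from young adults and the other aged groups were not.

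Cxcr6 (ENSMUSG00000048521, chr9:123806475-123811760, plus strand) encodes the receptor for CXCL16, which sinusoidal cells of the liver present. It was at 0.629, 0.492, 1.02 and 1.01 CPM in PAM I, 0.550, 0.228, 0.370 and 0.633 CPM in PAM II, 0.706, 0.251, 0.132 and 0.757 CPM in aged controls, and 0.214, 0.399, 0.680 and 0.349 CPM in young adults. All groups overlapped, with a mean of 0.565 CPM over the aged livers and 0.410 CPM over the young ones.

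Per length, as TPM, which divides by exon length before scaling, Nkg7 had the highest mean of the 10 in PAM I (6.62 ± 4.39), PAM II (3.15 ± 1.94) and aged controls (5.16 ± 6.26), and Cd4 in young adults (1.13 ± 0.340; SD, n = 4 each). Nkg7 followed in young adults with 0.988 ± 0.608 TPM, within the spread of Cd4. The lowest mean was that of Cd5 in PAM I (0.393 ± 0.243 TPM), PAM II (0.206 ± 0.105 TPM) and aged controls (0.363 ± 0.333 TPM), and that of Gzmk in young adults (0.0203 ± 0.0406 TPM). In aged controls Cd4 came next with 3.80 ± 4.19 TPM and Gzmb with 2.82 ± 3.77 TPM, and in PAM I Cd4 with 2.81 ± 2.80 TPM and Gzma with 2.32 ± 1.97 TPM. The ranges of these neighbours overlapped within each group.

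The comparison of each antibiotic group with aged controls asks whether the exposure went with another level of these genes at 102 weeks. No gene was called: 0 of 10 members and 0.0% of 17046 genes tested passed an adjusted p of 0.05 in PAM I against aged controls, 0.0% in PAM II against aged controls, 0.0% in both antibiotic groups against aged controls and 0.0% in PAM II against PAM I (edgeR quasi-likelihood test, Benjamini-Hochberg adjustment over all genes tested). At an unadjusted p under 0.05, PAM I against aged controls had 0 of 10 members and 9.4% of all genes, PAM II against aged controls 1 of 10 and 2.73%, both groups together 0 of 10 and 5.64%, and PAM II against PAM I 1 of 10 and 4.56%. The member in both cases was Cd4, and the count in PAM II against PAM I, 0 at an adjusted p under 0.05, was the same without each library. DESeq2 and limma voom called 0 members in each of these comparisons as well.

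PAM I had positive log2 fold changes against aged controls for 8 of 10 genes, with a median of 0.46 beside 0.02 over all genes tested. The greatest was that of Cxcr6 (0.788 against 0.462 CPM on average; log2 fold change 0.76 ± 0.50 SE, adjusted p = 0.643), and the CD3 genes had 0.61 ± 0.64 (Cd3e, adjusted p = 0.795) and 0.51 ± 0.69 (Cd3g, adjusted p = 0.851). These values are about as large as their errors. PAM II had negative values for 10 of 10 genes, with a median of -0.63 beside 0.01 over all genes, and for Cd4 a mean of 0.756 ± 0.504 CPM against 5.94 ± 6.48 CPM in aged controls (4 livers each, SD; log2 fold change -2.98 ± 1.08, adjusted p = 1.0). Against PAM I the 10 genes of PAM II were also all negative (median -1.06 beside 0.01 over all genes), with Cd4 at -2.64 ± 1.07 (adjusted p = 0.880) and Gzmk at -1.76 ± 0.95 (adjusted p = 0.880). These comparisons share libraries, so their signs are not separate results.

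The direction of 9 of the 10 PAM II values against aged controls depended on aged control replicate 4. Without it, PAM I against aged controls had 10 of 10 positive values between 0.02 and 2.86 (median 1.42, lowest adjusted p = 0.192), and PAM II against aged controls had 9 of 10 positive values between -2.62 and 1.10 (median 0.55, lowest adjusted p = 0.903), Cd4 being the negative one. Without PAM I replicate 3 or 4 the median of PAM I against aged controls was 0.10 or 0.07.

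**Figure D3:**
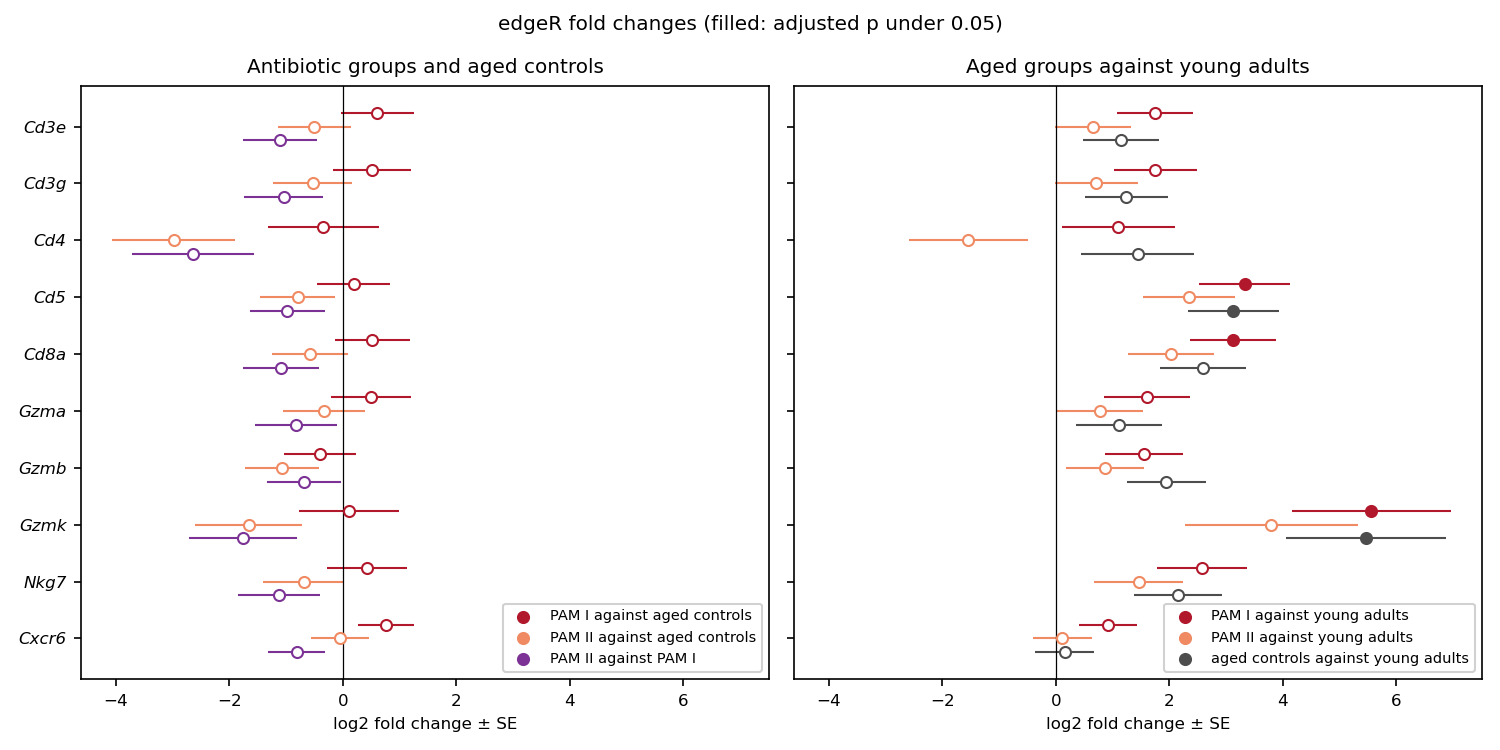
edgeR log2 fold changes with standard errors (horizontal axis) of the 10 genes, for the comparisons among aged groups (left) and against young adults (right); filled points have an adjusted p under 0.05. None of the left points is filled, and the filled points on the right are Cd5 and Gzmk in PAM I and aged controls and Cd8a in PAM I.

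The comparison with young adults asks what differed between 102 and 12 weeks, and there some of the genes were called. PAM I and PAM II also differ from young adults in antibiotic exposure, which cannot be told apart from age there. All aged livers include both exposed groups. Cd5 and Gzmk rose in aged controls and in PAM I, and Cd8a rose in PAM I. Cd5 and Gzmk passed the filter on low counts only through aged livers, with 0 of 4 young libraries over its limit of 0.224 CPM. Such genes had to be higher in aged livers to be tested, so the counts of called members below are a description. With no filter Cd5 was called in aged controls (adjusted p = 0.0473) and Gzmk was not (adjusted p = 0.0814), whereas in PAM I and in all aged livers Cd5, Cd8a and Gzmk were all called. Cd5 averaged 0.712 ± 0.647 CPM in aged controls and 0.0769 ± 0.0767 CPM in young adults (4 livers each, SD; log2 fold change 3.13 ± 0.80 SE, adjusted p = 0.0447), and Gzmk averaged 0.699 ± 1.20 CPM against 0.0121 ± 0.0243 CPM (5.46 ± 1.41, adjusted p = 0.0465). Cd8a missed the threshold there with 1.59 ± 1.99 CPM against 0.260 ± 0.129 CPM (2.60 ± 0.76, adjusted p = 0.0736). Thus 2 of 10 members rose, beside 1.92% of all genes tested, and 3 of 10 had no overlap with young adults, beside 4.83% of all genes. The fitted fold change of Gzmk rests on 2 young fragments and depends on the prior count of the fit. It was 2.70 without aged control replicate 4 and 7.97 without young replicate 3, the liver with those 2 fragments, while Cd5 had 2.28 and 3.88, and Cd8a 1.19 and 2.88. Without aged control replicate 4 no member was called (lowest adjusted p 0.140) and the median of the 10 was 0.76 in place of 1.69. The count was also 0 without young replicate 1, 2 or 4, PAM I replicate 2 or 3 or PAM II replicate 2, 3 or 4, and 1 without young replicate 3 or PAM I replicate 4 (Cd5) or aged control replicate 1 or 3 (Gzmk); with the muscle covariate the adjusted p was 0.157 for Cd5 and 0.142 for Gzmk.

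In PAM I against young adults 3 of 10 members rose, beside 4.83% of all genes: Cd5 with 0.813 ± 0.501 against 0.0769 ± 0.0767 CPM (log2 fold change 3.33 ± 0.80, adjusted p = 0.0220), Cd8a with 2.27 ± 1.76 against 0.260 ± 0.129 CPM (3.12 ± 0.76, adjusted p = 0.0242) and Gzmk with 0.751 ± 0.447 against 0.0121 ± 0.0243 CPM (5.56 ± 1.40, adjusted p = 0.0270). No overlap with young adults was seen for 5 of 10, beside 9.16% of all genes, namely these 3, Gzmb and Nkg7. Nkg7 stood at 2.58 ± 0.79 (adjusted p = 0.0537) and Cd3e at 1.75 ± 0.67 (adjusted p = 0.111). The count was 1 without PAM I replicate 3 (Cd5) or 4 (Cd8a) or without young replicate 1 (Cd8a) or 2 (Cd5), 0 without young replicate 4, and 6 without aged control replicate 4, a library of neither group. The log2 fold changes lay between 2.88 and 4.07 for Cd5, 2.43 and 3.39 for Cd8a and 5.2 and 8.07 for Gzmk in these fits, the highest of each without young replicate 3.

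PAM II against young adults had 0 of 10 members called, beside 3.17% of all genes higher, although at an unadjusted p under 0.05 it had 3 of 10, beside 22.6% of all genes. Those 3 were again Cd5 (0.408 ± 0.193 against 0.0769 ± 0.0767 CPM; log2 fold change 2.35 ± 0.81, adjusted p = 0.102), Cd8a (1.06 ± 0.353 against 0.260 ± 0.129 CPM; 2.03 ± 0.76, adjusted p = 0.127) and Gzmk (0.219 ± 0.0962 against 0.0121 ± 0.0243 CPM; 3.80 ± 1.52, adjusted p = 0.152), and all 3 lay above young adults without overlap, beside 8.17% of all genes. DESeq2 called 3 members and limma voom 1. Cd4 went the other way, with every PAM II liver below every young one, beside 6.14% of all genes (log2 fold change -1.54 ± 1.05, adjusted p = 0.410). Without aged control replicate 4 the count was 2, Gzmk and Cd8a. Whether PAM II differs from PAM I in its distance to young adults is the comparison of PAM II with PAM I above, in which no gene was called.

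Taking the 12 aged livers of all 3 groups, antibiotic-exposed or not, against the 4 young livers, Cd5, Cd8a and Gzmk rose, 3 of 10 members beside 6.12% of all genes. Cd5 averaged 0.644 ± 0.474 CPM in aged livers (SD, n = 12) and 0.0769 ± 0.0767 CPM in young livers (SD, n = 4; log2 fold change 2.94 ± 0.73, adjusted p = 0.0191). Cd8a averaged 1.64 ± 1.49 against 0.260 ± 0.129 CPM (2.58 ± 0.69, adjusted p = 0.0266) and Gzmk 0.556 ± 0.714 against 0.0121 ± 0.0243 CPM (4.94 ± 1.34, adjusted p = 0.0283). The same 3 were the members with 12 of 12 aged livers above all young ones, which 2.69% of all genes tested showed. Nkg7 came near with 1.85 against 0.414 CPM (2.06 ± 0.70, adjusted p = 0.0667) and Gzmb had 1.19 against 0.413 CPM (1.46 ± 0.60, adjusted p = 0.126). The CD3 genes had 1.18 ± 0.58 (Cd3e, adjusted p = 0.196) and 1.23 ± 0.63 (Cd3g, adjusted p = 0.213), Gzma 1.17 ± 0.66 (adjusted p = 0.260), Cxcr6 0.40 ± 0.43 (adjusted p = 0.582) and Cd4 0.33 ± 0.84 (adjusted p = 0.831). All 10 values were positive, with a median of 1.34 beside -0.03 over all genes tested.

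Leaving out 1 of the 16 libraries kept Cd5 called in 14 fits, Cd8a in 13 and Gzmk in 12, with the losses at the young livers: 0 members were called without young replicate 1 or 4, 1 without replicate 2 and 2 without replicate 3, whereas leaving out aged control replicate 4 left 3. With the muscle covariate Cd8a had an adjusted p of 0.0516. Over these fits the log2 fold change was 2.52 to 3.69 for Cd5, 2.11 to 2.86 for Cd8a and 4.02 to 7.45 for Gzmk, again with the highest of each without young replicate 3. The stricter filter removed Cd5, Gzmk and Cxcr6.

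The genes were also set against Cd3e within the same library. For Gzmk and Cd5, with 2 and 12 fragments in all young livers together, a low ratio in young livers follows from these counts. Gzmk had 23.9 to 36.4 fragments per 100 Cd3e fragments in PAM I livers, 11 to 28.8 in PAM II livers, 8.93 to 54.4 in aged controls and 0 to 4.44 in young adults. Cd5 had 23.8 to 45.5 in PAM I livers, 23.0 to 53.8 in PAM II livers, 28.9 to 138 in aged controls and 0 to 15.6 in young adults. For Cd8a PAM I livers, at 44.7 to 126, overlapped with young adults, at 19.0 to 47.8. PAM II livers at 62.3 to 133 and aged controls at 57.9 to 169 lay above the young ones. Nkg7 had 84.8 to 109 in PAM I livers, above young adults at 17.4 to 81.0. For Nkg7, PAM II livers at 75.0 to 114 and aged controls at 78.9 to 119 overlapped with young adults. Cd3g, the partner chain, had pooled ratios of 69.3, 72.2, 73.7 and 68.9 in PAM I, PAM II, aged controls and young adults, and Gzma 36.9, 44.3, 40.8 and 41.2. Cxcr6 had 29.9, 35.9, 27.2 and 53.8 in the same order. These ratios were not tested, and they divide small counts, Cd3e having 119 fragments in all young livers together.

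**Figure D4:**
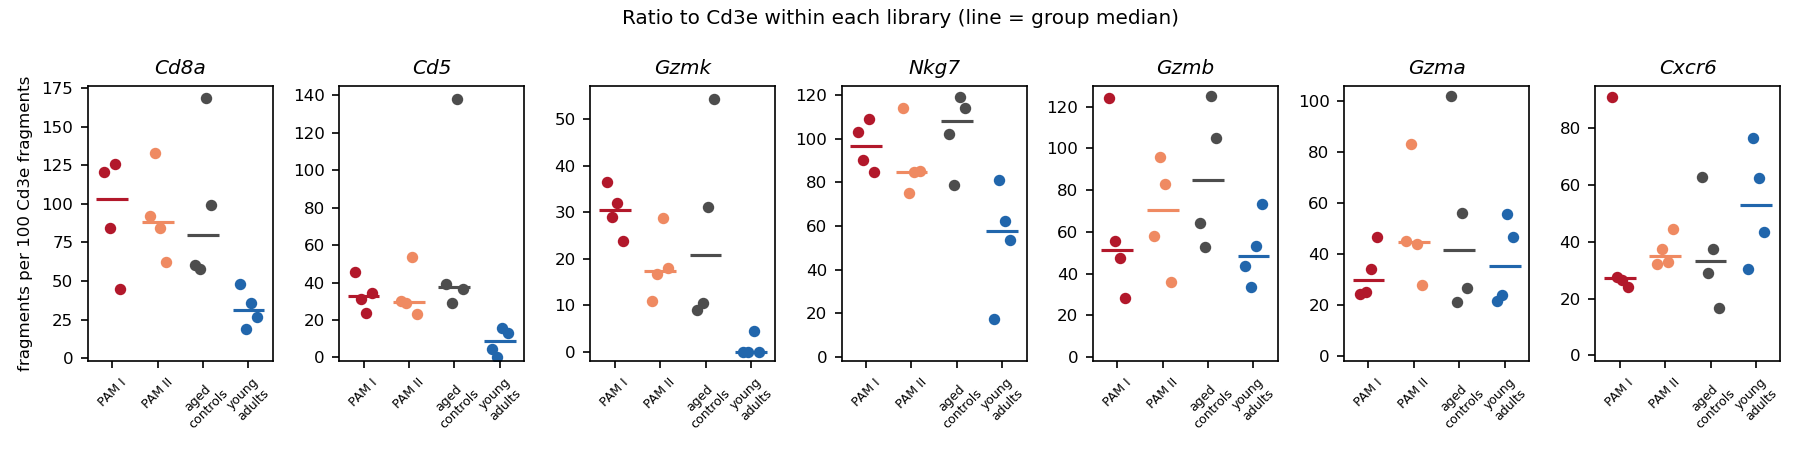
Fragments of 7 genes per 100 Cd3e fragments of the same library (vertical axis, scale set per gene) in the 4 groups; points are livers and lines are group medians. Gzmk and Cd5 of young adults, at most 4.44 and 15.6, lie below all aged livers, while Gzma and Gzmb overlap.

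Across the 16 libraries the levels of 9 of the 10 genes varied alike, and Cd4 less so. The Pearson r of each gene with the mean of the other 9, on log2 values, was 0.96 for Cd3e and Nkg7, 0.92 for Cd3g and Gzmk, 0.89 for Cd8a, 0.88 for Cd5 and Gzmb, 0.85 for Gzma, 0.76 for Cxcr6 and 0.59 for Cd4. The libraries include both ages and 3 high aged livers, which these values share. Without those 3 livers (n = 13) r was between 0.60 (Cxcr6) and 0.88 (Nkg7) for the 9 genes and -0.01 for Cd4. Aged control replicate 4 had the highest aged level for 6 of the 10 genes, PAM I replicate 3 for Cd8a and Cxcr6, PAM I replicate 4 for Gzma and aged control replicate 1 for Cd4.

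NK cell markers were low in every group. Of 12 listed, 8 could be tested and 0 rose in aged controls, PAM II or all aged livers against young adults, while Eomes, a transcription factor of NK and memory T cells, rose in PAM I (log2 fold change 3.78 ± 1.09, adjusted p = 0.0450). It was not called without PAM I replicate 2, 3 or 4, PAM II replicate 2, 3 or 4 or any 1 of the young livers, nor with no filter. No young liver was over the filter limit for Eomes. Their summed level was 4.43 to 10.7 CPM in PAM I livers, 4.31 to 7.41 in PAM II livers, 3.18 to 18.0 in aged controls and 3.62 to 6.44 in young adults, 18.0 being that of aged control replicate 4. Ncr1, the receptor that defines NK cells, had 1 to 22 fragments in any library, and Klra4 was at 0 in 10 of 16. Il2rb and Klrk1 had the highest counts of the list, up to 325 and 191 fragments in a library. Of the 8 tested, 8 had positive log2 fold changes in aged controls against young adults (median 0.69). The number was 7 in PAM I (median 0.51), 5 in PAM II (0.10) and 7 in all aged livers (0.41). Of the B cell and plasma cell markers, in all aged livers Ighm, Igkc and Jchain, 3 of 11, were called, beside 6.12% of all genes, Ighm with 165 ± 122 CPM in aged livers (SD, n = 12) against 17.7 ± 9.51 CPM in young livers (SD, n = 4; log2 fold change 3.06 ± 0.40, adjusted p = 0.000299). Ms4a1, which encodes CD20, was called in PAM I (2.31 ± 0.83 against 0.664 ± 0.260 CPM; 1.80 ± 0.44, adjusted p = 0.0235). The list summed to 457 to 1310 CPM in PAM I livers, 484 to 687 in PAM II livers, 415 to 444 in aged controls and 187 to 344 in young adults. Sdc1, which was not called, had the most fragments of this list, 149587 in aged and 36760 in young livers. Ighm had 93031 and 2714, and Igkc 67836 and 1012. The sum is therefore largely that of Sdc1, above all in young livers, and is no measure of B cells alone. The part of B cells in the Cd5 level was not tested.

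**Figure D5:**
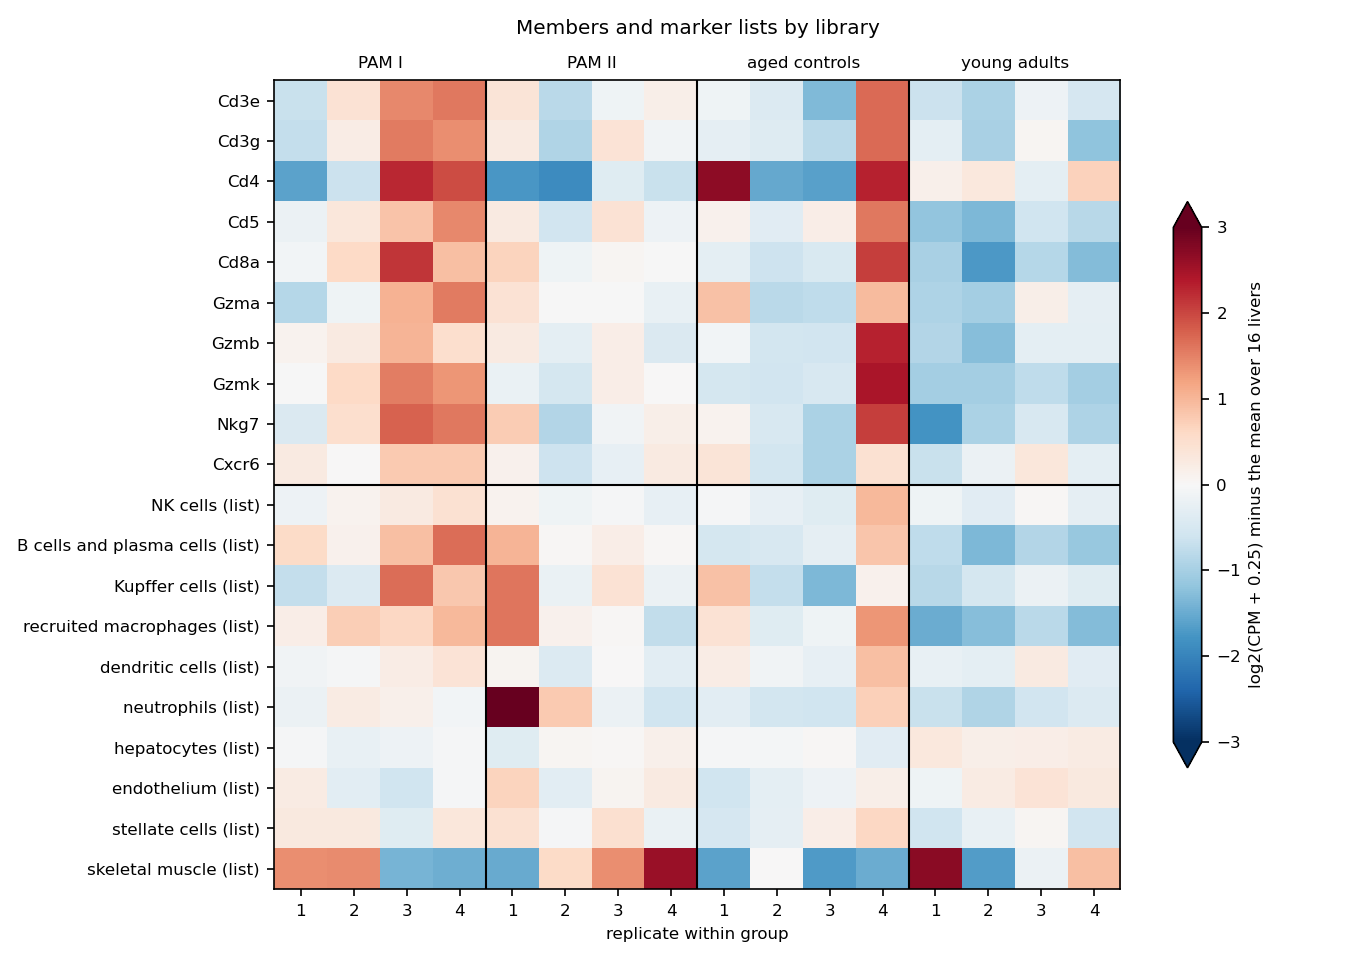
Log2(CPM + 0.25) minus the mean over 16 livers, colours ending at 3 in both directions, for the 10 genes (upper rows) and the mean of 10 cell type marker lists (lower rows), by group and replicate. The T cell genes are high in aged control replicate 4 and PAM I replicates 3 and 4, and neutrophil markers in PAM II replicate 1. Skeletal muscle markers are low in those 3 livers and also in PAM II replicate 1, aged control replicates 1 and 3 and young replicate 2.

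Markers of recruited macrophages were higher in aged livers. In all aged livers against young adults 7 of 10 rose, beside 6.12% of all genes, among them Gpnmb, a glycoprotein of lipid-laden macrophages (4.43 ± 1.89 CPM in aged livers, n = 12, against 0.280 ± 0.156 CPM in young livers, n = 4; log2 fold change 3.96 ± 0.53, adjusted p = 0.000348), and Trem2, a lipid receptor (3.65 ± 0.76, adjusted p = 0.00713). The others were the integrin chains Itgax (2.48 ± 0.51, adjusted p = 0.00640) and Itgam (3.33 ± 0.96, adjusted p = 0.0382), the galectin Lgals3 (2.02 ± 0.45, adjusted p = 0.0102), osteopontin, encoded by Spp1 (1.54 ± 0.47, adjusted p = 0.0456), and the chemokine receptor Ccr2. The count was 5 without aged control replicate 4, and 4 without PAM I replicate 4, without young replicate 1, 2 or 4, or with no filter.

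Of 11 Kupffer cell markers Adgre1 (1.45 ± 0.44, adjusted p = 0.0452) and Vsig4 (1.65 ± 0.51, adjusted p = 0.0497) rose in all aged livers, beside 6.12% of all genes. The count was 0 with no filter and 5 without PAM I replicate 1, and in the other fits without 1 library it was 0 or 1, except those without PAM II replicate 4 or aged control replicate 3. Cd5l, a secreted macrophage protein, was called in PAM II against young adults (1.71 ± 0.47, adjusted p = 0.0446). Cd5l was not called there without PAM II replicate 1 or 3 or young replicate 1, 2 or 4, nor with no filter. Of 6 tested neutrophil markers 0 rose in all aged livers, while in PAM II against young adults S100a8, S100a9 and Mpo rose, 3 of 6 with a median of 4.30, beside 3.17% of all genes. Of the 6, Mpo and Retnlg had 0 young libraries over the filter limit and passed it only through aged livers, so this count and median are a description. PAM II replicate 1 had a summed neutrophil marker level of 137 CPM, and the other livers had 2.40 to 19.7 CPM. The count was 0 without PAM II replicate 1, without any 1 of the young livers, or with no filter. Of 9 hepatocyte markers 0 rose or fell. Zbtb46 of 7 dendritic cell markers fell (-0.51 ± 0.13, adjusted p = 0.0194), as did Clec4g and Dnase1l3 of 8 endothelial ones, beside 4.99% of all genes called lower. No stellate cell or skeletal muscle marker was called. The part of these cells in the T cell results was not tested.

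The counts that follow are to be read beside the share of all genes called higher, 6.12% in all aged livers, 4.83% in PAM I, 3.17% in PAM II and 1.92% in aged controls, each against young adults. The genes of the T cell receptor complex did not pass in all aged livers: 0 of 9 tested rose, with a median of 1.18. Against young adults Tcrg-C2, a constant segment of the gamma receptor chain whose near copies may share its reads, was called in PAM I (1.25 ± 1.09 against 0.188 ± 0.160 CPM; log2 fold change 2.74 ± 0.81, adjusted p = 0.0477). PAM I was not shown to differ from the other aged groups, among which no gene was called. That count of 1 was 0 without PAM I replicate 2, 3 or 4, PAM II replicate 2 or 3, aged control replicate 1 or 2 or young replicate 2, 3 or 4. It was 4 without PAM I replicate 1 and 6 without aged control replicate 4. Of 11 tested co-receptor and co-stimulation genes, Cd5 and Cd8a were the 2 that rose in all aged livers, with 1 left without young replicate 1 or 2 and 0 without young replicate 4. Tnfrsf9, the co-stimulatory receptor 4-1BB, was called in PAM I (3.06 ± 0.87, adjusted p = 0.0433), and it too had 0 young libraries over the filter limit. Tnfrsf9 was not called without PAM I replicate 3 or 4 or young replicate 2 or 4. Of 11 signalling genes 3 rose: Themis, which tunes receptor signalling in thymocytes (2.70 ± 1.44 CPM in aged livers, n = 12, against 0.225 ± 0.106 CPM in young livers, n = 4; 3.55 ± 0.63, adjusted p = 0.00265), the Ras activator Rasgrp1 (1.05 ± 0.30, adjusted p = 0.0367) and the adaptor Fyb (1.32 ± 0.38, adjusted p = 0.0372). Themis rose in each aged group separately as well. The count of 3 was 1 without PAM I replicate 4 or young replicate 1, 2 or 4.

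Among the checkpoint and exhaustion receptors, which restrain activated T cells, 4 of 9 rose in all aged livers, beside 6.12% of all genes, with a median of 2.65, which was the same with Ctla4, at 0 in young livers, set to its bound (at least 7.85-fold higher in aged livers, with the young group as a whole at 3 counts). Of the 9, Pdcd1, Tigit, Ctla4 and Cd160 had 0 of 4 young libraries over the filter limit and passed it only through aged livers, so these counts are a description. Tigit had 179 fragments in aged livers and 1 in young livers, a ratio of rates of 48.4 (exact 95% interval 8.58 to 1920; adjusted p = 0.0301). Havcr2, which encodes TIM-3, averaged 2.01 ± 1.61 against 0.306 ± 0.278 CPM (log2 fold change 2.65 ± 0.74, adjusted p = 0.0338), Cd244a had 2.66 ± 0.67 (adjusted p = 0.0197) and the nuclear factor Tox 0.64 ± 0.18 (adjusted p = 0.0342). In PAM I against young adults 5 of 9 rose, beside 4.83% of all genes, with Pdcd1, which encodes PD-1, at 119 fragments against 3 (ratio 31.7, interval 10.6 to 156; adjusted p = 0.0479) and Ctla4 at 40 fragments against 0, at least 10.7-fold higher when the young group as a whole is set to 3 counts (adjusted p = 0.0492). In aged controls Tigit and Cd244a rose and in PAM II Tox. The count of 2 in aged controls was 0 without aged control replicate 4, PAM I replicate 2 or PAM II replicate 3. Leaving out young replicate 1, 2 or 4 also gave 0. The count there was 1 without PAM I replicate 4, aged control replicate 1 or young replicate 3. Tox was not called in PAM II without young replicate 3 or 4. The count in PAM I was 0 without PAM I replicate 3 or 4 or young replicate 2 or 4, and 1 without PAM I replicate 2 or young replicate 1 or 3. It was 2 without PAM II replicate 3, 3 without aged control replicate 1 and 3 with no filter. In all aged livers it was 0 without young replicate 4, 1 without young replicate 1, 2 or 3, and 4 with no filter.

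Of 10 tested granule genes Gzmk was the only one that rose in any of the comparisons with young adults in the edgeR fit of all libraries. Gzmk passed the filter on low counts only through aged livers. In PAM I the count of 1 was 4 without aged control replicate 4 (Gzmk, Nkg7, Gzmb and Ctsw). It was 2 without PAM I replicate 1, PAM II replicate 1 or aged control replicate 3. Without PAM I replicate 3 or 4 or any 1 of the young livers it was 0. DESeq2 also called Nkg7 in aged controls, PAM I and all aged livers. Of 8 death ligands and cytokines, the chemokines Ccl3, Ccl4 and Ccl5 rose in all aged livers (Ccl5 with 8.08 ± 8.65 CPM in aged livers, n = 12, against 1.17 ± 0.686 CPM in young livers, n = 4; log2 fold change 2.66 ± 0.75, adjusted p = 0.0345), and Ltb and Tnf joined them in PAM I. Ccl3 and Ccl4 had 0 young libraries over the filter limit. The count of 3 was 0 without young replicate 1, 2 or 4 and 1 without young replicate 3, and the count of 5 in PAM I was 3 without young replicate 3, 2 without PAM I replicate 2 or young replicate 2, 1 without PAM I replicate 3 or 4 or young replicate 1 and 0 without young replicate 4. Of 5 genes tested from the list of granzyme inhibitors, Serpinb1a, an inhibitor of serine proteases, rose in every aged group, with 26.4 ± 16.5 CPM over all aged livers (n = 12) against 2.11 ± 1.15 CPM in young livers (n = 4; 3.62 ± 0.61, adjusted p = 0.00183). The other 4 were not called in any of these comparisons. Whether Serpinb1a acts on the granzymes followed here was not tested. Of 12 transcription factors 1 was called, a share near the 6.12% of all genes: Runx3 (1.59 ± 0.47, adjusted p = 0.0411), which was not called without PAM I replicate 3 or 4, PAM II replicate 1 or 3 or any 1 of the young livers.

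Of 12 tested homing receptors, Cxcr6 among them, 3 rose in all aged livers, beside 6.12% of all genes: Cxcr4 (2.47 ± 1.56 against 0.328 ± 0.246 CPM; log2 fold change 2.87 ± 0.62, adjusted p = 0.00887), the integrin chain Itga4 (1.43 ± 0.39, adjusted p = 0.0284) and Ccr2 (1.85 ± 0.54, adjusted p = 0.0385), which macrophages also carry. Of 7 ligands of these receptors 0 passed, and Cxcl16, the ligand of CXCR6, stood at 16.4 ± 6.65 CPM in aged livers (n = 12) against 8.75 ± 1.04 CPM in young livers (n = 4; 0.90 ± 0.29, adjusted p = 0.0588). The count of homing receptors that rose in all aged livers was 1 without young replicate 1, 2 or 4. That of the ligands was 2 without young replicate 3 and 1 without PAM II replicate 4 or aged control replicate 2. On the side of the MHC ligands 4 of 9 rose, though these genes have near copies that may share reads: the class I gene H2-D1 (774 ± 94.8 against 524 ± 76.8 CPM; 0.56 ± 0.12, adjusted p = 0.0101) and the class II genes H2-Eb1 (1.53 ± 0.45, adjusted p = 0.0385), H2-Aa (1.47 ± 0.44, adjusted p = 0.0446) and Cd74 (1.57 ± 0.47, adjusted p = 0.0447). Their count was 2 without PAM I replicate 3, PAM II replicate 1 or 2 or aged control replicate 1, and 1 without PAM I replicate 4, PAM II replicate 3 or young replicate 1, 2 or 4, or with no filter.

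The genes outside the 10 whose levels were most like the mean of the 10 over the 16 libraries were the T cell receptor constant segment Trbc2 (Pearson r = 0.969), Baiap3 (0.968), the chemokine receptor Cxcr3 (0.962), Ccl5 (0.959), Pdcd1 (0.952), the immunoproteasome subunit Psmb8 (0.952), the glutamate transporter Slc1a3 (0.949), the lymphocyte receptor Slamf6 (0.947), Cdc42ep2 (0.946) and the class II peptide loader H2-DMa (0.945). Cd3e was most like Trbc2 (0.961) and the kinase Lck (0.959), and Cd3g like Trac (0.953) and Lck (0.947). Gzmk was closest to Baiap3 (0.968) and Tigit (0.950), and Cd8a to Arl5c (0.966). Cd4 was closest to the cytokine gene Il18 (0.854) and G730013B05Rik (0.851), and Cxcr6 to Dnase1l1 (0.884) and Gdf11 (0.851). These r values were picked as the highest of 17046 genes and describe these libraries only.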

How the data were processed

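Livers of 16 mice, 4 in each of 4 groups taken from the age and group fields of the labels, were sequenced as paired 100-base reads. Each deposited file gives the raw count of fragments of every gene in 1 library. Per the submitters' processing notes the tools were Trimmomatic 0.38, HISAT2 2.1.0 and featureCounts 1.5.0-p2 with build mm10; per the file headers, exons of the Ensembl release 99 annotation were summed per gene with strand setting 1. Whether the library kit keeps strand is not given in the sources used here. GENCODE M21 gave symbols for 55144 of 55471 identifiers, and RefSeq gave promoter sequences. No pair of libraries was identical.

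The analysis used edgeR 4.0.16 in R 4.3.3: filterByExpr by group left 17046 genes, scaling was by TMM, and 1 quasi-likelihood model with a mean per group and robust dispersions was fitted to all libraries (biological coefficient of variation 27.31%). Tests were two-sided, and called genes are those with a p under 0.05 after Benjamini-Hochberg adjustment over all genes tested. Of 8 comparisons, 3 (PAM I, PAM II and all aged livers against young adults) were added after seeing the data. The members and 21 gene lists were chosen with earlier results of these data known. Beside the members, the text names list genes called in any comparison, or else up to 4 by p, and the genes most like the members. Klra4, Ncr1, Il2rb, Klrk1, Cd160, Alb, Gzmc and Gm48719 were named after their values were seen. CPM are TMM-scaled, and log2 levels use CPM + 0.25. Intervals are exact at 95% and cover counting error only. Alternatives were other scalings and filters, no robust step, DESeq2 1.42.0, limma 3.58.1 voom with quality weights, only the groups compared, a skeletal muscle covariate and leaving out libraries.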

Additional observations from a re-analysis of the deposited data

Results flagged for a closer look

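Of 40 sets of 4 livers (10 genes in 4 groups), 7 held a liver far from the other 3 by Dixon's test at the 95% level. Chance gives about 1 in 20 for separate sets, but the genes of a group share the same livers and vary together. The 7 are therefore a description and are not set against that rate. Aged control replicate 4 accounted for 6 of them: Cd3g at 3.43 CPM (next highest control 0.686), Cd5 at 1.67 (next 0.482), Cd8a at 4.57 (next 0.686), Gzmb at 4.81 (next 0.726), Gzmk at 2.49 (next 0.110) and Nkg7 at 5.23 CPM (next 1.15). The same liver's high NK cell marker sum, 18.0 CPM, was given above. The last was Gzmk in young replicate 3 at 0.0486 CPM, where the other 3 young livers had 0, which is a matter of 2 fragments.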

How the results depend on the processing

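No paired analysis was possible because nothing in the labels ties livers of different groups: their titles number the 16 livers in 1 run, and replicate numbers within a group follow sample order only. Of 1982 recomputed values, 1799 kept their direction and side of the threshold, 54 lost and 24 gained the call, 67 changed sign and 38 counts moved. No alternative called a member among the aged groups. The count of members called in aged controls against young adults, 2, became 1 with no filter, 4 with DESeq2, and 0 with the stricter filter, limma voom, only the groups compared, the muscle covariate, or without aged control replicate 4 and young replicate 1 together (0 to 2 without 1 library). In PAM I against young adults 3 became 1 with the stricter filter, 5 with DESeq2, 4 with only the groups compared and 5 without both libraries (0 to 6). In PAM II against young adults 0 became 3 with DESeq2, 1 with voom, 2 with only the groups compared and 1 without both (0 to 2). In all aged livers 3 became 1 with the stricter filter, 4 with DESeq2, 2 with the muscle covariate and 2 without both libraries (0 to 4). The stricter filter left 7 members to test, without Cd5 and Gzmk.

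Signs that turned, as log2 fold changes, were these. In PAM I against aged controls, Cd4 had 0.17 with voom and 0.02 without both libraries, and Gzmb 0.80 and 1.17. In PAM II against aged controls, voom gave Cd3e 0.29, Cd3g 0.32, Cd8a 0.46, Gzma 0.43, Gzmb 0.23, Gzmk 0.75, Nkg7 0.10 and Cxcr6 0.28, the muscle covariate Gzma 0.60, Nkg7 0.12 and Cxcr6 0.34, and leaving out both libraries Cd3e 0.64, Cd3g 0.65, Cd5 0.07, Cd8a 0.84, Gzma 0.09, Gzmb 0.49, Gzmk 1.10, Nkg7 0.62 and Cxcr6 0.29. In aged controls against young adults, Cd3e had -0.04 without both, Cd4 -0.65 with voom and Cxcr6 -0.45 with voom, -0.11 with the covariate and -0.38 without both. Against young adults with voom, Cd4 had -0.48 in PAM I and -0.87 in all aged livers (-0.01 with the covariate), and Cxcr6 -0.17 in PAM II (-0.09 without both) and -0.01 in all aged livers. The causes were not tested.

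Leaving out 1 library gave these ranges. In PAM I against aged controls they were -0.95 to 0.39 for Cd4, -0.26 to 1.04 for Cd5, -0.17 to 1.93 for Cd8a, -0.11 to 0.92 for Gzma, -0.71 to 1.17 for Gzmb and -0.26 to 2.86 for Gzmk. In PAM II against aged controls they were -0.84 to 0.64 for Cd3e, -0.83 to 0.65 for Cd3g, -1.07 to 0.06 for Cd5, -0.87 to 0.84 for Cd8a, -0.64 to 0.09 for Gzma, -1.39 to 0.49 for Gzmb, -2.02 to 1.10 for Gzmk, -1.09 to 0.62 for Nkg7 and -0.35 to 0.29 for Cxcr6. Cxcr6 had -0.18 to 0.52 in aged controls and -0.10 to 0.47 in PAM II against young adults. With 2 Gzmk and 12 Cd5 fragments in young livers, depth limits the size of both changes.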
